A study of Mus musculus with 14 samples.

Results

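Dense peak clusters were stretches of the mouse genome where many peaks of open chromatin lay close together in long-term haematopoietic stem cells (LT-HSCs). They were found from peak positions alone. Autosomal consensus peaks were joined when the gap to the next was at most 5 kb, and runs of 6 or more peaks were kept, with raw counts summed per run and by peak. This gave 161 clusters with 1127 of 57289 peaks, or 1.97% of the peaks and 2.47% of the counts over all 14 libraries. Just below the rule, 203 runs held exactly 5 peaks, with a median level of 11.7 CPM per peak over libraries (CPM, reads in a peak scaled to equal library totals), against 11.9 CPM in the 95 clusters of exactly 6.

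The study profiled bulk chromatin by ATAC-seq, in which the transposase Tn5 cuts open DNA, in 14 libraries of C57BL/6 bone marrow LT-HSCs. The labels name the cells haematopoietic stem cells, and the study sorted them as Lin- Sca1+ cKit+ CD34- Flt3-. Of these libraries 4 came from young mice (10 to 16 weeks), 5 from aged mice (over 80 weeks) and 5 from cells of aged mice of the same age that were given Ri. Ri is Rhosin, a small molecule that blocks activation of the GTPase RhoA, a switch that controls actin and cell tension, and was given at 100 µM during the incubation. All cells, young and untreated aged ones included, spent 16 h outside the animal in HBSS with serum at 37 °C, 3% oxygen and 5% carbon dioxide before lysis. Replicates are biological per the series' description, but the number of animals behind a library is not stated, so p-values measure the spread between libraries.

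Enhancers are stretches of DNA, often far from a gene's start, where transcription factors bind and open the chromatin. Super-enhancers are dense groups of enhancers near genes that define a cell's identity, and they are usually recognised by heavy loading with coactivators and acetylated histones. Accessibility measures only how readily Tn5 cuts, and repeated DNA can also gather many peaks in a short stretch, since reads from its copies cannot be told apart. No histone mark or coactivator was measured here, and the longest clusters carried signs of repeated sequence, so the regions are called dense peak clusters and not super-enhancers.

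Clusters were marked as repeated sequence after they were seen, by any of 3 signs: only provisional gene names (14 clusters), a place in the first 4 Mb of a chromosome (4 clusters), or a promoter at least 90% identical over 300 bases to another in the same table (3 clusters). Together these marked 20 clusters with 192 peaks, which held 26.4% of all cluster counts. Only the third sign compares sequence, and no repeat annotation was used, so repeated here means marked by any of these signs. The other 141 clusters held 935 peaks. The clearest array, the second longest cluster, lay at chr4:88773367-88806271 over Ifnz, an interferon zeta gene, and 11 provisional genes, with 21 peaks and 12 annotated starts. Its promoters are printed first because they show how alike its copies are. Sequences are RefSeq's, on GRCm38.p6 (mm10), and cover the 250 bases before the annotated start. Capitals mark matches to any of 6 motifs, given further on, and Gm13290 and Gm13272 have none. Ifnz lies at chr4:88781881-88782130, Gm13290 at chr4:88773584-88773833 and Gm13272 at chr4:88779600-88779849, all on the + strand.
Ifnz: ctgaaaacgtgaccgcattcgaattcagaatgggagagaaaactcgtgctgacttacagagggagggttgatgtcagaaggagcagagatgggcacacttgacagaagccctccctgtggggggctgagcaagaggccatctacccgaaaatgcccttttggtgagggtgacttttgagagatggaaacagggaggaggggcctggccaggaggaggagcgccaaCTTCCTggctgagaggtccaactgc
Gm13290: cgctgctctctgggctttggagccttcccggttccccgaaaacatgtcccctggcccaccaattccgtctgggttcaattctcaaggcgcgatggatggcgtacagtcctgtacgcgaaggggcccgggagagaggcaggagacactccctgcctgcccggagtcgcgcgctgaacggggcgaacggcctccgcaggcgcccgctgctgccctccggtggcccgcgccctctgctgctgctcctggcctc
Gm13272: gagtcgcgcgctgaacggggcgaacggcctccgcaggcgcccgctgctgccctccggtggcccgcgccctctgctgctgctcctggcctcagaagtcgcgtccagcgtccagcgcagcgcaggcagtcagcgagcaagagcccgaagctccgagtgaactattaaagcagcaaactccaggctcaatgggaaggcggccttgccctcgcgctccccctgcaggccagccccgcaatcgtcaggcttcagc
Over 300 bases, the promoters of Ifnz, Gm13276 and Gm13277 were identical. Gm13278 differed from them by T90G and Gm13288 by T90C, counted from 1 at the 5′ end of the window, with the Ifnz base first. Gm13290 was identical to Gm13279, and Gm13272 to Gm13285 and Gm13287. Ifnz shared 28.7% of aligned positions with Gm13290 and 22.7% with Gm13272. The last 140 bases of the 300-base window of Gm13290 were the first 140 of that of Gm13272, so these starts sit at shifted places in one repeated unit. Peaks over identical promoters did not have equal levels: those over the starts of Ifnz, Gm13276 and Gm13277 averaged 18.2, 18.0 and 58.3 CPM over the 14 libraries. These are levels of whole peaks, which reach beyond the promoter, and reads of the copies cannot be told apart. They are thus not levels of the promoters themselves, and where each peak lies in its copy was not compared.

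The longest cluster, at chr11:3123421-3181756, had 23 peaks over 58336 bp at Sfi1, which encodes a centrosome protein. A cluster of 16 peaks at chr9:3001990-3032069, near the start of chromosome 9, had no protein-coding gene within 50 kb. Beside these stood clusters at Gm21119 (13 peaks) and Gm40363 (12 peaks), both provisional genes. The longest cluster without a sign of repeated sequence had 11 peaks at Csk, the kinase that restrains Src-family kinases, followed by 10 near Socs3, a brake on cytokine signalling, and 10 at Sprr2a3, of a family of skin barrier proteins. Among the 20 repeated clusters the strongest peak held a median of 17.9% of the counts (range 8.28% to 54.0%). In the other 141 it held 33.1% (16.8% to 67.3%).

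**Figure D1:**
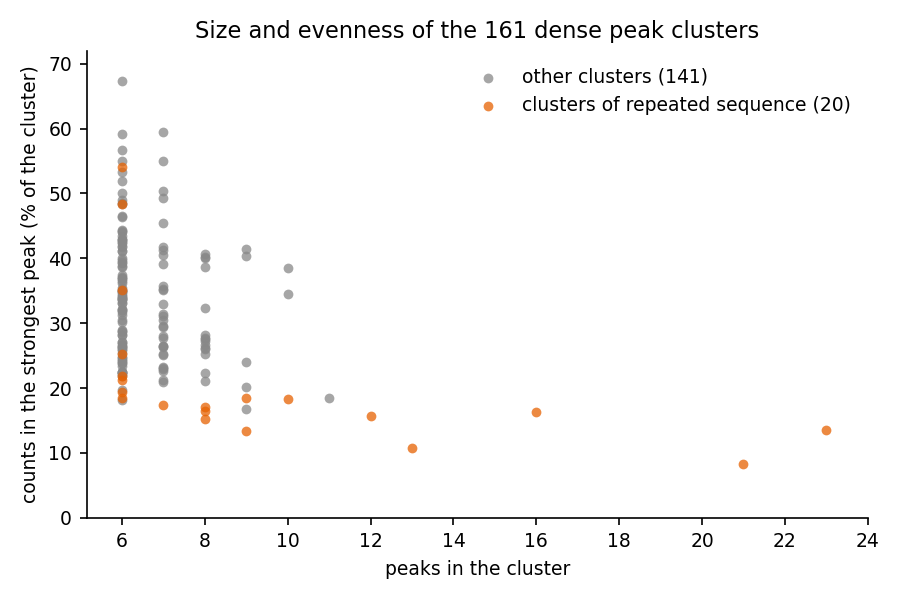
Each point is 1 of the 161 clusters, with its number of peaks on the x axis and the percentage of its counts that fell in its strongest peak on the y axis. The 5 clusters with 12 or more peaks all carry a sign of repeated sequence, and in each of them the strongest peak held 16.3% or less.

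Most clusters were short. The median cluster had 6 peaks over 17735 bp, with a median gap of 2234 bp between neighbours. Member peaks were also higher than most, at a median of 13.2 CPM against 9.23 CPM over all peaks and 8.68 CPM for autosomal peaks with no neighbour within the gap. Of the 1127 members, 251 (22.3%) lay within 1 kb of an annotated gene end, 474 (42.1%) inside a gene and 402 (35.7%) between genes. Gene ends took 32.8% of cluster counts, against 44.3% of the counts of all peaks. Clusters overlapped no protein-coding gene in 26 cases, 1 gene in 91 and several in 44.

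Library depth ran from 765533 (young 3) to 3176246 (aged Ri 3) counts in peaks, which gave a median of 10 to 37 counts per member peak and of 84 to 355 per cluster. Of 10 LT-HSC marker genes, 8 had a peak at an end, with summed levels of 273 to 388 CPM in young, 271 to 336 CPM in aged and 216 to 329 CPM in aged Ri libraries, and Slamf1 and Gata2 had none. Of 8 genes of tissues other than blood, 2 had one (13.1 to 35.6 CPM over all libraries). Summed B-cell markers (4 of 7 with a peak, Pax5 and Ms4a1 among those without) ran from 84.2 to 193 CPM in young and from 49.3 to 83.7 CPM in aged libraries. Megakaryocyte markers (5 of 7, Ppbp and Gp6 without) ran from 88.8 to 183 CPM and from 191 to 280 CPM. In bulk libraries such a difference cannot tell fewer cells of a type from less signal per cell, and its part in the results was not tested.

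Regulators of blood formation were among the genes at clusters. Of 45 haematopoietic transcription factors, 8 (17.8%) lay at a cluster, against 234 of 21900 protein-coding genes (1.07%). The list was chosen with earlier results known and its genes lie in accessible chromatin of these cells, so the counts are a description. The 8 were Lyl1 and Nfix in one cluster, Zfpm1, Gfi1b, Hoxa9 and Hoxa10 in one, and Hoxb4 and Hoxb5 in one. None of 25 receptors and surface proteins of HSCs lay at a cluster, nor any of 25 chromatin and nuclear envelope genes. Pxn, the focal adhesion protein paxillin, was the only one of 34 genes of the actin and RhoA pathway. Of 26 immediate early and feedback genes, 3 did: Ier2, Zfp36, which destabilises cytokine mRNAs, and Socs3.

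No cluster at a gene of these lists passed the edgeR test in aged against young or aged Ri against aged libraries, though those of Zfpm1 and Hoxb5 did under other settings. At Lyl1 and Nfix (chr8:84699799-84712931, 6 peaks), neighbouring genes of transcription factors, summed signal was 311 ± 77.4, 337 ± 77.3 and 310 ± 62.7 CPM in young, aged and aged Ri libraries (SD, n = 4, 5 and 5). The Hoxa cluster (chr6:52211201-52234517, 8 peaks over Hoxa3 to Hoxa10), whose genes sustain stem cell self-renewal, stood at 155 ± 9.46, 161 ± 15.2 and 160 ± 12.5 CPM in the same order (SD, n = 4, 5 and 5). For aged against young libraries the log2 fold change was 0.18 ± 0.19 (standard error, SE) at Lyl1 and 0.06 ± 0.17 (SE) at Hoxa9 (edgeR adjusted p = 0.595 and 0.857). At the Hoxb cluster it was 0.39 ± 0.18 (SE, edgeR adjusted p = 0.186, or 0.0216 with loess offsets, which even out a trend with signal level). The clusters of Pxn, Ier2, Zfp36 and Socs3 had edgeR adjusted p of 0.265, 0.863, 0.644 and 0.940 for age.

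Zfpm1 encodes FOG1, a cofactor of GATA factors in megakaryocytes and red cells, and its cluster (chr8:122303999-122324555) came closest to a call. Its signal was 63.1, 79.7, 52.5 and 113 CPM in young 1 to 4. In aged 1 to 5 it was 93.0, 104, 140, 114 and 107 CPM, and in aged Ri 1 to 5 it was 68.2, 67.3, 73.3, 74.1 and 97.8 CPM. Aged libraries were mostly above both other groups, with overlap at young 4 and aged Ri 5. The log2 fold change was 0.59 ± 0.19 (SE) for aged against young (edgeR adjusted p = 0.0585) and −0.57 ± 0.18 (SE) for aged Ri against aged (edgeR adjusted p = 0.168, or 0.0514 with the replicate number as a block). For age it passed in 6 of 21 other settings, by DESeq2 (adjusted p = 0.0394), with loess offsets or without young 4, aged 5 or aged Ri 1 or 2. For Ri it passed in 1, with each library's share of counts at gene ends as a covariate (edgeR adjusted p = 0.0384). One of its 6 peaks, inside the gene at chr8:122309142-122309841 and named here after its values were seen, rose with age from 24.2 ± 8.44 (SD, n = 4) to 54.4 ± 17.5 CPM (SD, n = 5; edgeR adjusted p = 0.00123) and stood at 32.4 ± 7.17 CPM (SD, n = 5) with Ri. The age call held in all 21 settings. The Ri difference did not pass without the block (log2 −0.75, edgeR adjusted p = 0.0917) and passed with it (log2 −0.73, edgeR adjusted p = 0.00736). It also passed with the covariate, with loess offsets or without aged 5. With the block a second peak of the gene, at chr8:122321575-122322274, was also lower with Ri (log2 −0.84, edgeR adjusted p = 0.0355).

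MicroRNAs, short RNAs that silence mRNAs matched by their seed, also had genes in the clusters: 13 genes in 9 clusters, giving 22 mature forms in the RefSeq table. The forms known best from blood cells are shown, to place their genes among the peaks. Capitals mark the seed, bases 2 to 8, and no seed is shared among the 7. MiR-23a-3p (chr8:84208563-84208583), miR-27a-3p (chr8:84208727-84208747) and miR-24-3p (chr8:84208875-84208896) come from 1 group of genes on the + strand near Zswim4. MiR-142a-5p (chr11:87756867-87756887) and miR-142a-3p (chr11:87756903-87756925) lie on the + strand in the cluster at Tspoap1. MiR-196b-5p (chr6:52230129-52230150, − strand) lies among the Hoxa genes and miR-10a-5p (chr11:96317186-96317208, + strand) among the Hoxb genes.
miR-23a-3p: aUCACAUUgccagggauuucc
miR-27a-3p: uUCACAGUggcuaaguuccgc
miR-24-3p: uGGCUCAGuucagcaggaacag
miR-142a-5p: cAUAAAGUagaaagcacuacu
miR-142a-3p: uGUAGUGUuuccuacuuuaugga
miR-196b-5p: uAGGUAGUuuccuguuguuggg
miR-10a-5p: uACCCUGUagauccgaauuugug
The miR-142 gene, active across blood lineages, lay inside a peak at 25.3 ± 4.94, 18.3 ± 4.33 and 23.0 ± 2.12 CPM, again in young, aged and aged Ri order (SD, n = 4, 5 and 5). No comparison of it passed (edgeR adjusted p = 0.231 for age, 0.658 for Ri in aged cells and 0.740 between aged Ri and young libraries). The peak nearest to the miR-23a group stood at 33.0 ± 8.19, 28.0 ± 6.36 and 22.2 ± 2.81 CPM in young, aged and aged Ri libraries (SD, n = 4, 5 and 5), and it did not pass in any comparison either. The peak 278 bp from the mature miR-196b-5p stood at 17.3 ± 3.32 CPM in young, 13.0 ± 4.13 in aged and 9.57 ± 1.37 in aged Ri libraries (SD, n = 4, 5 and 5). It fell between young and aged Ri libraries by 0.83 on the log2 scale (edgeR adjusted p = 0.0398). That call ended without young 2 or 3, aged 2 or any single aged Ri library (edgeR adjusted p up to 0.194).

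The first comparison asked what age changes in the dense clusters. Of 1124 member peaks tested, 28 rose (2.49%) and 18 fell (1.60%) in aged against young libraries, where 4.45% and 1.26% of all peaks tested rose and fell. At an unadjusted p under 0.05, 117 were higher and 105 lower, beside 7187 and 5344 of all 56235 peaks tested. As summed clusters, 3 of 161 rose (1.86%) and 4 fell (2.48%), beside 5.09% and 1.47% of all joined runs. The median log2 fold change was −0.07 over members and −0.01 over all peaks. Called peaks stood in 37 clusters, only 6 of which had more than 1, and in 1 cluster some rose while others fell. In repeated clusters 1 of 192 peaks rose and none fell. Without aged 3 the counts came to 20 peaks and 1 cluster, and without young 4 to 125 peaks, so the numbers lean on single libraries.

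The integrin gene Itga5, which encodes the alpha chain of a fibronectin receptor, held the cluster that rose most (chr15:103347131-103371007, 6 peaks). Its summed signal was 61.7, 67.3, 61.0 and 72.6 CPM in young 1 to 4. It was 133, 102, 165, 132 and 93.5 CPM in aged 1 to 5, and 122, 99.6, 182, 134 and 104 CPM in aged Ri 1 to 5. Every aged library, treated or not, lay above every young one, and the treated and untreated aged libraries covered the same range. The rise with age was 1.88-fold (log2 0.91 ± 0.20 SE, edgeR adjusted p = 0.00442). It kept its call without each single library (edgeR adjusted p from 0.00129 to 0.0337), and the call ended when each library's gene-end share was added as a covariate (edgeR adjusted p = 0.178).

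Of the 6 peaks 2 rose. The Itga5 peak at chr15:103358230-103358929, inside the gene, held 48.5% of the cluster's counts. It stood at 13.3, 24.7, 11.4 and 12.1 CPM in young 1 to 4 and at 74.6, 49.8, 103, 82.1 and 32.1 CPM in aged 1 to 5. With Ri it was 66.1, 45.1, 112, 62.2 and 35.6 CPM. No aged library reached down to the highest young one. From 15.4 ± 6.29 CPM (SD, n = 4) in young it rose to 68.3 ± 27.8 CPM (SD, n = 5) in aged libraries, 4.14-fold (log2 2.05 ± 0.26 SE, edgeR adjusted p = 9.59e-06), and it was called in all 21 settings. With Ri the log2 change was −0.07 (edgeR adjusted p = 0.972). The next peak of the gene rose too, from 4.52 ± 2.00 (SD, n = 4) to 14.1 ± 4.02 CPM (SD, n = 5; edgeR adjusted p = 0.00667). The peak at the gene's annotated start did not pass, at 16.1 ± 5.86 CPM in young and 15.7 ± 3.11 CPM in aged libraries (SD, n = 4 and 5, log2 −0.08, edgeR adjusted p = 0.883).

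Inhba, which encodes a subunit of activin, a ligand of the TGF-beta family, held the second cluster that rose (chr13:16012086-16031055, 6 peaks). It stood at 36.0, 44.7, 31.2 and 29.5 CPM in young 1 to 4, at 55.3, 64.4, 63.5, 55.4 and 53.9 CPM in aged 1 to 5 and at 60.9, 52.8, 42.3, 44.6 and 46.9 CPM in aged Ri 1 to 5. Young and aged libraries did not overlap, and 2 aged Ri libraries fell below the highest young one. The cluster rose 1.63-fold with age (log2 0.70 ± 0.19 SE, edgeR adjusted p = 0.0244), a call that ended without young 1, 3 or 4 or aged 2 or 3 (edgeR adjusted p up to 0.143). The peak at one annotated end of the gene rose 2.80-fold, from 6.18 ± 3.47 (SD, n = 4) to 16.1 ± 5.02 CPM (SD, n = 5; edgeR adjusted p = 0.00817), and that call needed both young 1 and aged 3, with an edgeR adjusted p of up to 0.147 when either was dropped.

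Between Wbp2, a coactivator that binds YAP, and Trim47, a ubiquitin ligase, 4 of the 7 peaks of one cluster rose with age, the most in any cluster (chr11:116086895-116104636). Summed, the cluster held 154, 265, 207 and 212 CPM in young 1 to 4 and 269, 287, 444, 339 and 252 CPM in aged 1 to 5. Only aged 5 fell within the young range. The sum was 1.54-fold higher with age (log2 0.63 ± 0.19 SE, edgeR adjusted p = 0.0415), a difference whose call ended without young 1, 2 or 3 or aged 1, 2, 3 or 4 (edgeR adjusted p up to 0.239). All 4 peaks that rose lay between the genes, and the one nearest Trim47 rose most, from 15.2 ± 5.33 (SD, n = 4) to 45.6 ± 25.3 CPM (SD, n = 5; 2.89-fold, edgeR adjusted p = 0.000942). The least firm of the 4, at chr11:116099183-116099882 (edgeR adjusted p = 0.0374), was not called by DESeq2 (adjusted p = 0.0526), with no batch term or with loess offsets, and lost its call when any of 6 libraries was dropped (edgeR adjusted p up to 0.275). The one 1667 bp from Wbp2 was not called once young 1 was dropped (edgeR adjusted p = 0.128). The peak at the start of Wbp2, the strongest of the cluster, did not pass, with 114 ± 9.85 CPM in young and 120 ± 11.7 CPM in aged libraries (SD, n = 4 and 5, edgeR adjusted p = 0.823).

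Promoters of the Itga5 and Wbp2 clusters are printed because their start peaks did not pass while elements nearby rose. That of Itga5 lies at chr15:103366792-103367041 and that of Wbp2 at chr11:116086996-116087245, both on the − strand and read 5′ to 3′ along the gene. Capitals mark GGGCGG (bound by SP1 and KLF factors), here as CCGCCC, in Itga5, and CACCTG (an E-box), here as CAGGTG, in Wbp2.
Itga5: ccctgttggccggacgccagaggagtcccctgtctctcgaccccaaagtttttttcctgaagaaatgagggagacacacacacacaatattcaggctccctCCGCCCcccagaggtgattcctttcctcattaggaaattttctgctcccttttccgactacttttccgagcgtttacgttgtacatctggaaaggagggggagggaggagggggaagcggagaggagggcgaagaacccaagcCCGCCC
Wbp2: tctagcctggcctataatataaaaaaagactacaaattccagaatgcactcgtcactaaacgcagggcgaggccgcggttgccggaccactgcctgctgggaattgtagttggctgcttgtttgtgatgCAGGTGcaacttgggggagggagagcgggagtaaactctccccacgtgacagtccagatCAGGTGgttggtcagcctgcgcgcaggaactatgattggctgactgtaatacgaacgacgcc
Of 119 promoters within peaks of the 141 clusters, 54.6% held GGGCGG on either strand in their 300 bases. The share was 35.9% over all 27025 promoters of the table and 66.8% over 9972 of protein-coding genes with a start in any peak. The 119 and the 27025 also include promoters of other genes, so the shares compare unlike mixes of genes. The E-box was in 15.1% of the 119 promoters and in 20.03% of all. Among the 9972 it was in 17.04%. AGGAAG (ETS factors) was in 33.6% of cluster promoters, 32.8% of the 9972 and 35.1% of all. AGATAA (read by GATA factors) was in 7.56%, 5.99% and 11.4%, in the same order. TGTGGT (RUNX factors) was in 13.4%, 12.2% and 16.9%. The AP-1 motif TGANTCA was in 5.04%, 4.68% and 7.93%. For these 4 motifs the cluster share lay between the other shares. The single match in the Ifnz promoter was AGGAAG, read as CTTCCT. These are matches of letters only, and they say nothing of binding.

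**Figure D2:**
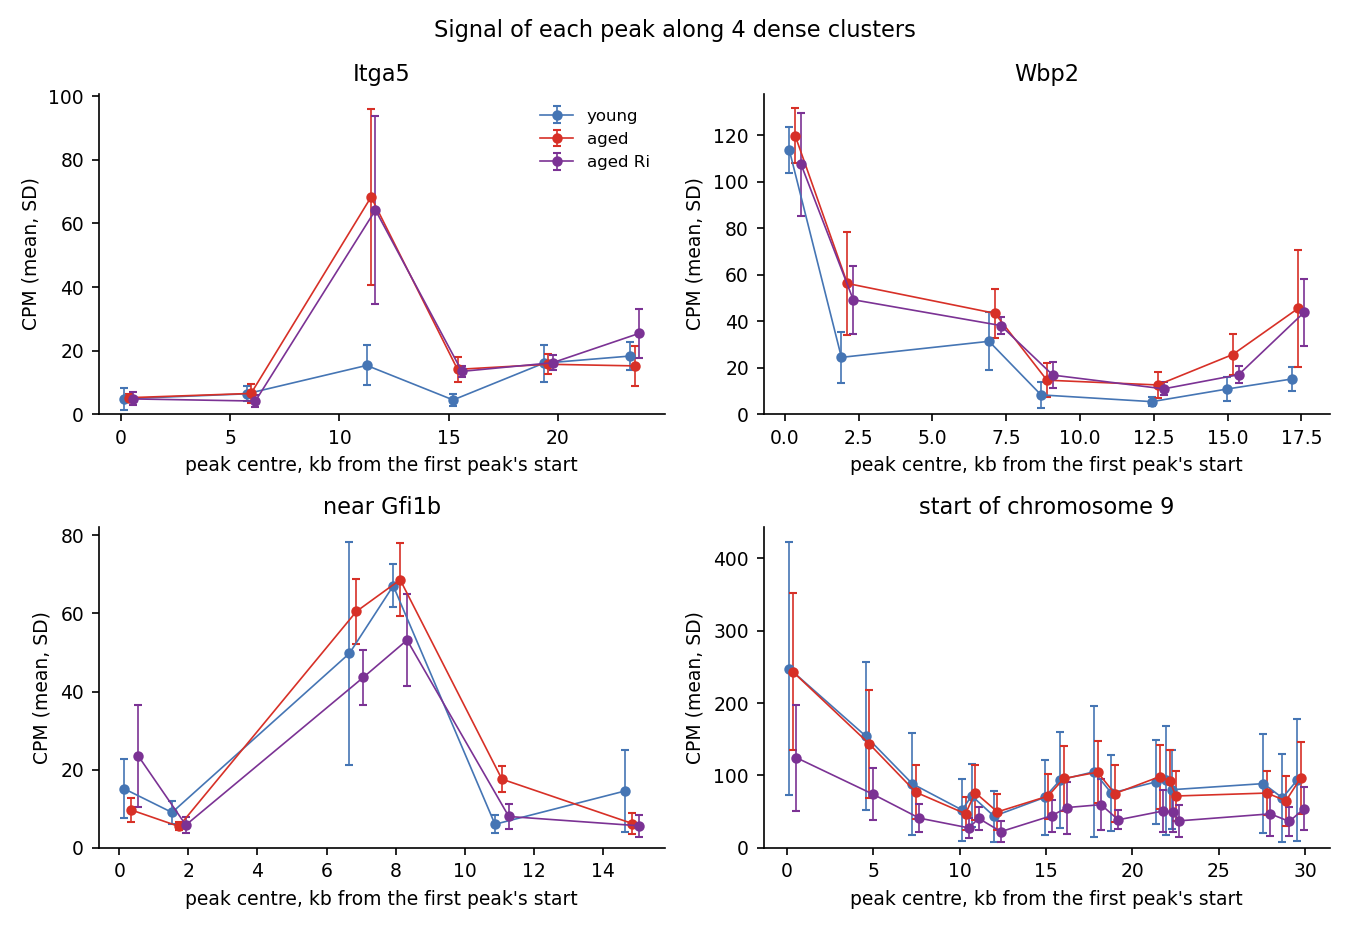
Mean CPM with SD of each peak along 4 clusters, at its distance in kb from the first peak's start, for young (n = 4), aged (n = 5) and aged Ri (n = 5) libraries; the 3 groups are shifted slightly sideways and lines only join the peaks. In Itga5 the third peak stood at 15.4 CPM in young and 68.3 CPM in aged libraries, near Gfi1b the first peak was highest with Ri and the fifth in aged libraries, and near the start of chromosome 9 all 16 peaks were lower in aged Ri than in aged libraries on average.

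Away from these clusters, single elements rose inside clusters whose sum did not pass. At one end of Traip, a ubiquitin ligase of DNA repair, a peak at chr9:107971699-107972398 stood at 11.1, 33.7, 18.5 and 23.7 CPM in young 1 to 4 and 65.8, 83.2, 118, 86.2 and 41.9 CPM in aged 1 to 5. The groups did not overlap, and the 3.62-fold rise (log2 1.86 ± 0.27 SE, edgeR adjusted p = 5.29e-05) was called in all 21 settings. A peak near Nrip1, a nuclear receptor corepressor, rose 2.58-fold and one near Tnip3, an inhibitor of NF-kappaB signalling, 2.50-fold (edgeR adjusted p = 0.00519 and 0.00539). The Tnip3 call ended without young 1 (edgeR adjusted p = 0.0610), and the Nrip1 call held without each single library. Both ended with the gene-end covariate (edgeR adjusted p = 0.393 for Tnip3 and 0.429 for Nrip1). So did 15 of the 18 single peaks called for age that were examined in this way, and those that kept the call were the Itga5 peak that rose most, the Traip peak and the Zfpm1 peak.

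Of the clusters that fell with age, that at Gfra2, which encodes a receptor for neurturin of the GDNF family, fell most (chr14:70874311-70894549, 6 peaks). It held 121, 66.0, 69.6 and 40.6 CPM in young 1 to 4 and 43.3, 40.4, 28.9, 42.4 and 38.7 CPM in aged 1 to 5. Aged libraries lay close together, while young 1 stood far above the rest and young 4 within the aged range. The decrease was 1.95-fold (log2 −0.96 ± 0.24 SE, edgeR adjusted p = 0.0162), and the call depended on young 1 and on aged 3, with an edgeR adjusted p of up to 0.270 when either was dropped. The peak at one end of the gene fell from 13.8 ± 3.69 (SD, n = 4) to 4.96 ± 1.91 CPM (SD, n = 5; edgeR adjusted p = 0.0132), a call lost without young 1 or 2 or aged 2 (edgeR adjusted p up to 0.122).

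A cluster near Tbc1d16, a GTPase-activating protein of membrane recycling, fell as a sum while none of its 6 peaks passed (chr11:119111151-119128575). It held 115, 80.4, 65.3 and 53.7 CPM in young 1 to 4 and 44.9, 39.8, 36.5, 63.6 and 37.4 CPM in aged 1 to 5, with aged 4 inside the young range. The log2 change was −0.85 ± 0.22 (SE, edgeR adjusted p = 0.0178), and the call ended without young 1 or 2 or aged 1, 2 or 3 (edgeR adjusted p up to 0.236). Young 1 was the highest library both here and at Gfra2.

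Sh2b3 encodes LNK, an adaptor that dampens cytokine signalling in stem cells, and its cluster with Pheta1 (chr5:121833614-121849339, 6 peaks) also fell. Young 1 to 4 held 254, 227, 307 and 257 CPM and aged 1 to 5 held 113, 129, 137, 193 and 242 CPM. Aged libraries spanned a wide range, and only aged 5 reached the young ones. The cluster fell by 0.67 ± 0.21 on the log2 scale (SE, edgeR adjusted p = 0.0468), a call lost without young 1, 2 or 3 or any single one of aged 1 to 4 (edgeR adjusted p up to 0.248). Inside Sh2b3 one peak fell 1.81-fold, from 85.9 ± 12.7 (SD, n = 4) to 46.3 ± 16.5 CPM (SD, n = 5; edgeR adjusted p = 0.0170, up to 0.146 without young 1 or 3 or aged 1, 2 or 3).

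The fourth cluster that fell covered Crybg2, Cd52, a lymphocyte surface protein, and Ubxn11 (chr4:134081624-134103002, 7 peaks). It held 187, 126, 152 and 123 CPM in young 1 to 4 and 77.0, 97.8, 74.8, 114 and 106 CPM in aged 1 to 5, with no overlap. The log2 change was −0.65 ± 0.19 (SE, edgeR adjusted p = 0.0355), lost without young 1, 2 or 3 or aged 1, 2 or 3 (edgeR adjusted p up to 0.304). Summed B-cell markers were also lower in aged than in young libraries, as given above. Summed T and NK cell markers (4 of 7 with a peak) overlapped, at 65.3 to 121 CPM in young and 51.3 to 126 CPM in aged libraries. The part of such cells in this fall was not tested. All 7 clusters changed with age lost their calls when the gene-end share of each library was a covariate (edgeR adjusted p from 0.178 at Itga5 to 0.942 at Sh2b3). That share was 48.7 ± 1.94% (SD, n = 4) in young and 42.6 ± 4.40% (SD, n = 5) in aged libraries. Within batches it differed with age by −5.45 points (exact permutation p = 0.0278, the smallest the 36 arrangements can give). Adding it as a covariate therefore also takes out differences that follow age, and the 2 cannot be told apart here.

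**Figure D3:**
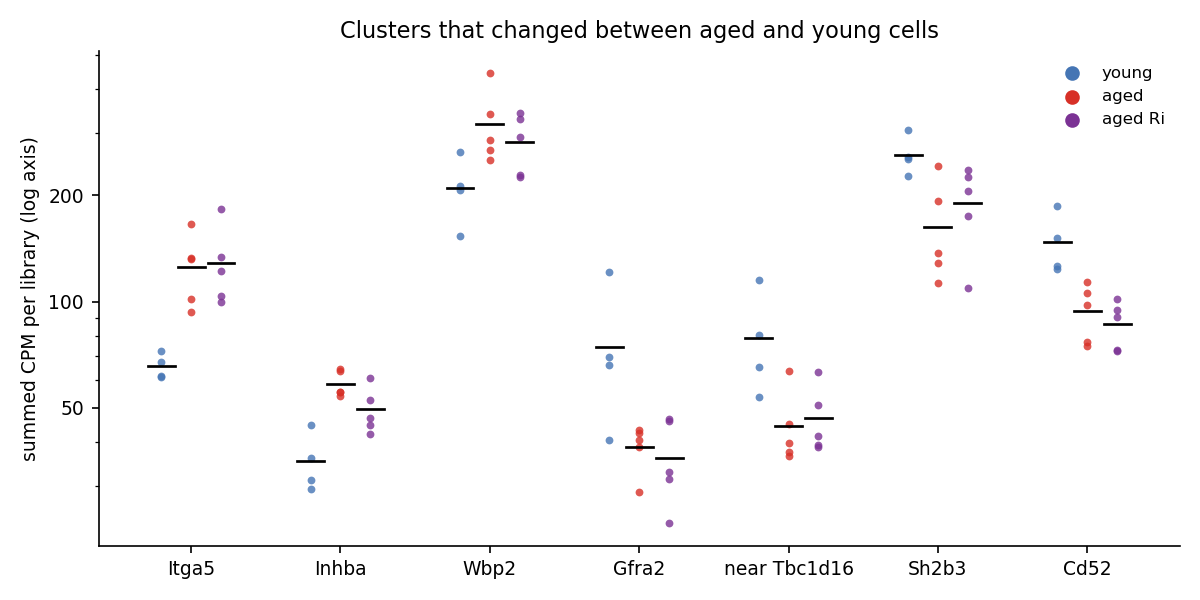
Summed CPM of each library (points, log axis) and the group mean (bars) for the 7 clusters that changed between aged (n = 5) and young (n = 4) libraries, with aged Ri libraries (n = 5) beside them. Young and aged points do not overlap at Itga5, Inhba and Cd52, and aged Ri points lie among or near the aged ones in all 7.

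Single peaks that fell with age included one near Mcl1, a survival factor of stem cells, at 37.3, 13.1, 27.0 and 6.29 CPM in young 1 to 4 and 5.61, 10.5, 3.76, 6.16 and 6.23 CPM in aged 1 to 5. It fell 3.13-fold (edgeR adjusted p = 0.00187), although young 4 lay within the aged range, and without young 1 the call ended (edgeR adjusted p = 0.0766). A peak inside Ahnak, a large scaffold protein, fell 2.95-fold (edgeR adjusted p = 0.00954), also lost without young 1 (edgeR adjusted p = 0.301). One inside Septin9, a cytoskeletal filament protein, fell 2.31-fold (edgeR adjusted p = 0.0311), and that call was lost without young 1 or 3 or aged 1, 2 or 3 (edgeR adjusted p up to 0.371).

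The second comparison asked what Ri changes in aged cells. Of 1124 member peaks, 2 were higher (0.178%) and 1 lower (0.0890%) with Ri, where 0.375% and 0.0711% of all peaks tested were called. At an unadjusted p under 0.05, 60 were higher and 94 lower, beside 3154 and 2594 of all 56235 peaks tested. Of the 94, 41 lay in repeated clusters. Of the summed clusters 0 of 161 passed the edgeR test (0 by DESeq2 as well), beside 0.269% higher and 0.0586% lower of all joined runs. Untreated and treated aged libraries that carry the same number deviated together, though only weakly in replicate 2 (r = 0.14), so the fit was repeated with that number as a block. Then 33 of 1090 peaks rose and 60 fell, beside 2.89% and 1.53% of all peaks, and 1 cluster rose and 9 fell, beside 2.38% and 1.26% of all joined runs.

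Of the 3 peaks called without the block, the one with the lowest edgeR adjusted p lay inside Pecam1, which encodes an adhesion molecule of platelets and endothelium (chr11:106665255-106665954). It is named after its values were seen, with a mean of 19.6 counts. It held 6.42, 4.69, 4.14, 4.11 and 7.57 CPM in aged 1 to 5 and 11.98, 10.2, 24.2, 12.2 and 11.3 CPM in aged Ri 1 to 5. The groups did not overlap, and young libraries (4.44 to 13.5 CPM) overlapped both. The rise with Ri was 2.69-fold (log2 1.43 ± 0.32 SE, edgeR adjusted p = 0.0324, or 0.000232 with the block). The call was lost when any of aged 2, 3 or 4 or aged Ri 1, 2 or 3 was dropped (edgeR adjusted p up to 0.316) and with no batch term.

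Gfi1b encodes a repressor needed for red cells and platelets, and the cluster beside it (chr2:28591283-28606478, 6 peaks) held called peaks in opposite directions. Its peak at chr2:28602007-28602706 stood at 6.22, 6.87, 2.84 and 8.22 CPM in young 1 to 4 and at 19.2, 14.1, 16.9, 22.6 and 15.1 CPM in aged 1 to 5. In aged Ri 1 to 5 it was at 13.0, 5.96, 6.46, 5.39 and 9.30 CPM. Each aged library was above each young and each aged Ri one. It rose 2.71-fold with age (edgeR adjusted p = 0.00557, but 0.0529 without young 1) and fell by 1.13 on the log2 scale with Ri (edgeR adjusted p = 0.0495, or 0.00045 with the block). Both differences rest on the same 5 aged libraries, so they are not independent. The Ri call ended without young 2, without any single one of aged 1 to 4, or without any single one of aged Ri 2 to 5 (edgeR adjusted p up to 0.316). It also ended with RLE scaling, with no filter or with no batch term, and held in 9 of 21 other settings. The peak had a mean of 20.9 counts.

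At the far side of this cluster the peak at chr2:28591283-28591982, whose nearest gene is Gtf3c5, a subunit of an RNA polymerase III factor, rose with Ri. It held 5.61, 7.62, 10.9, 10.9 and 13.4 CPM in aged 1 to 5 and 6.25, 19.6, 32.9, 39.6 and 19.4 CPM in aged Ri 1 to 5. Only aged Ri 1 lay in the aged range. The rise was 2.25-fold (edgeR adjusted p = 0.0499, or 5.54e-05 with the block), and its call was lost without the same 9 libraries (edgeR adjusted p up to 0.245). The call was also lost with RLE scaling, no filter, no batch term or loess offsets, and held in 8 of 21 other settings. Summed, the Gfi1b cluster did not pass (162 ± 31.4, 168 ± 20.6 and 140 ± 22.5 CPM in young, aged and aged Ri libraries, SD, n = 4, 5 and 5, edgeR adjusted p = 0.654 for aged Ri against aged).

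With the block, the cluster near Smu1, a splicing factor, was the one that rose (chr4:40772829-40782474, 6 peaks). Aged 1 to 5 held 49.7, 66.2, 54.1, 76.0 and 55.2 CPM and aged Ri 1 to 5 held 84.3, 141, 108, 97.8 and 68.3 CPM. The Ri library was higher in 5 of 5 pairs, and young libraries (56.6 to 119 CPM) overlapped both groups. The log2 change was 0.71 ± 0.17 (SE, edgeR adjusted p = 0.00796) with the block and 0.69 ± 0.19 (SE, edgeR adjusted p = 0.0974) without it. Without the block it also passed with the gene-end covariate, with loess offsets, or when aged 5 or aged Ri 1 was dropped.

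Clusters with a sign of repeated sequence made up most of what fell. With the block, 40 of 191 repeated members fell and 0 rose, while in the other clusters 33 of 899 rose and 20 fell. Several of these 20 lay at Sprr2a3, near Speer4e, at Zfp978 and at Sp110. These clusters carried no sign of repeated sequence but followed the repeated ones across libraries, as given below. Others of the 20 lay in clusters such as those of Gfi1b and Zfpm1. Of the 9 clusters that fell, 7 were repeated, and the others lay at Zfp978, a zinc finger gene, and near Speer4e. The largest change was near the start of chromosome 9, where aged 1 to 5 held 1255, 2521, 994, 929 and 1717 CPM and aged Ri 1 to 5 held 802, 1450, 339, 892 and 542 CPM. The Ri library was lower in 5 of 5 pairs, by 1.92-fold (log2 −0.94 ± 0.22 SE, edgeR adjusted p = 0.00584 with the block, 0.667 without). Young libraries spread more widely than the aged groups, from 485 CPM (young 1) to 3089 CPM (young 3).

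These clusters are not independent of each other. Across the 14 libraries, 13 of the 20 repeated clusters followed the median of the other repeated ones with r over 0.8, and so did 5 of the other 141: Zfp978 (r = 0.92), near Speer4e (r = 0.91), Sprr2a3 (r = 0.88), Sp110 and Sp140 (r = 0.86) and Duxf3 (r = 0.82). The points share libraries and depth, and no p is given. In 5 repeated clusters, those at Ifnz, Gm40369 and Gm40363 among them, r was below 0. Without the block all 20 repeated clusters had a log2 change below 0 with Ri (median −0.49), and so had 184 of their 192 peaks, with none called. In the other clusters the median was −0.02.

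**Figure D4:**
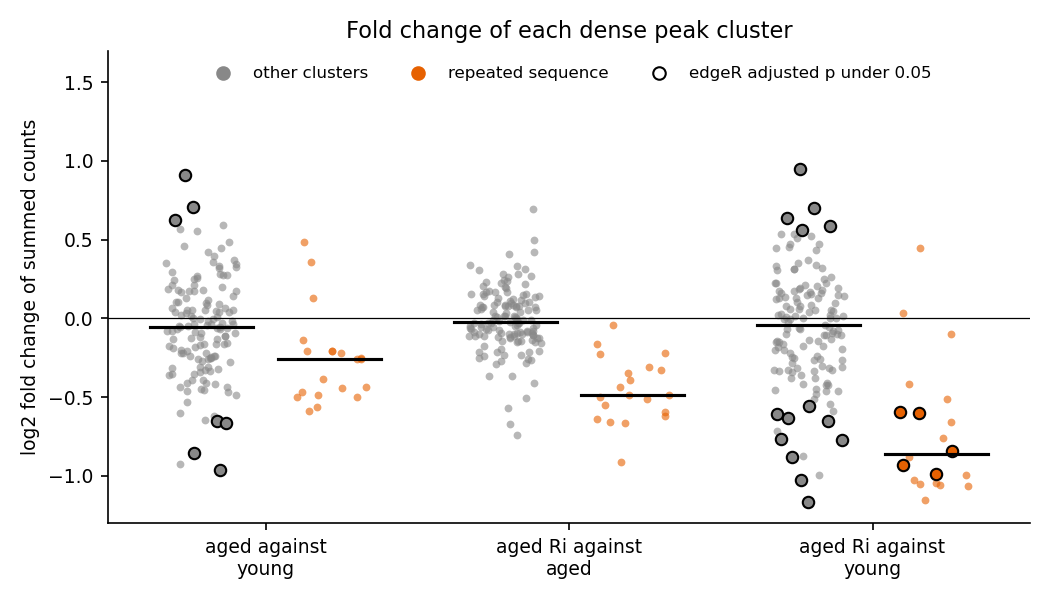
Log2 fold change of summed counts for each of 141 other clusters (grey) and 20 clusters of repeated sequence (orange) in the 3 comparisons, with black bars at the median and black rings at an edgeR adjusted p under 0.05. For aged Ri against aged libraries all 20 orange points lie below 0, around a median of −0.49, while the grey points centre on −0.02.

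The share of counts that fell in dense clusters was compared by exact permutation of the labels within sequencing batches, 2-sided. It was 2.59 ± 0.213% in young, 2.58 ± 0.151% in aged and 2.36 ± 0.0896% in aged Ri libraries (SD, n = 4, 5 and 5). With Ri it was lower by a difference of −0.222 percentage points (exact permutation p = 0.0278, the smallest the 72 arrangements can give), and by −0.225, −0.205 and −0.251 within batches 1, 2 and 3. By pairs the smallest exact p is 0.0625, which was reached. The difference lay in the repeated clusters: without them it was −0.0147 points (exact permutation p = 0.389). It ranged from −0.273 to −0.171 points without each single library, and its exact permutation p came to 0.0556 when any of 5 libraries was dropped, aged 2 and 5 and aged Ri 1, 2 and 5. Without aged 5 or aged Ri 5 no smaller p is possible, since batch 3 then cannot be permuted. With age the share differed by −0.0059 points (exact permutation p = 0.972), and between aged Ri and young libraries by −0.228 (exact permutation p = 0.139).

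Repeated clusters took 0.711, 0.963, 0.641, 0.618 and 0.865% of counts in aged 1 to 5 and 0.662, 0.567, 0.448, 0.462 and 0.620% in aged Ri 1 to 5. The share was lower with Ri in 5 of 5 pairs. Totals were 1.40, 0.802, 1.17, 1.96 and 1.00 times as large in the Ri library of a pair, and the part of depth in the lower share was not tested. Young 1 to 4 took 0.490, 0.763, 1.141 and 0.744%, and the highest of these was the shallowest library, young 3. Over the 9 young and aged libraries the share and the total had Pearson's r = −0.53 (exact permutation p = 0.140, adjusted over 2 relations 0.280) and Spearman's rho = −0.30 (exact permutation p = 0.437). Without the libraries farthest from the median total, aged 3 and aged 5, r was −0.68. Without young 3 alone, a choice made after seeing the data, it was −0.19, so the relation rests on that library. Batches held 3, 4 and 2 of these libraries, too few to test within. When the 5 repeated clusters with most counts were left out, the Ri difference in this share went from −0.208 to −0.0499 points.

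**Figure D5:**
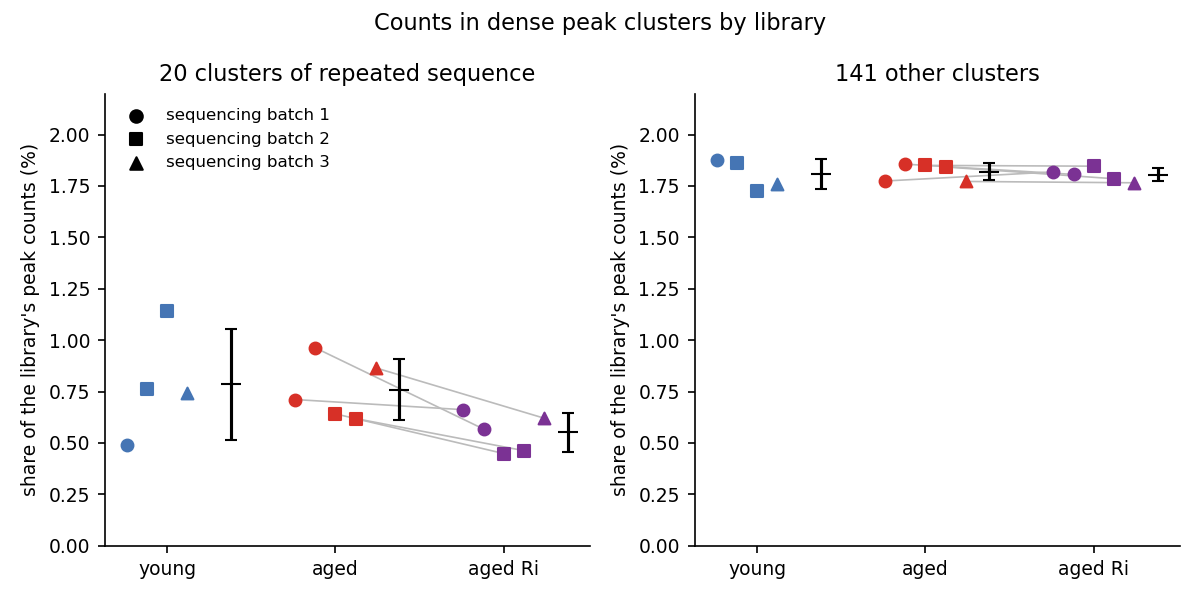
Percentage of each library's peak counts in 20 clusters of repeated sequence (left) and in 141 other clusters (right) for young (n = 4), aged (n = 5) and aged Ri (n = 5) libraries, marked by sequencing batch, with mean and SD in black and grey lines joining each aged library to the treated one with its number. On the left all 5 lines fall, and on the right the points stay between 1.73% and 1.88%.

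In the third comparison, which shares its libraries with the other two, 71 of 1124 member peaks (6.32%) were higher and 76 (6.76%) lower in aged Ri than in young libraries, beside 7.90% and 3.56% of all peaks. Of the clusters 5 were higher and 14 lower, beside 8.27% and 3.85% of all joined runs, and 5 of the 14 were repeated. Without aged Ri 3 the counts came to 48 peaks and 4 clusters, and without young 4 to 210 and 31. Itga5 was highest again (log2 0.95 ± 0.20 SE, edgeR adjusted p = 0.00165), with Tnip3 at 0.64 and Eef1g with Ahnak at 0.59 (edgeR adjusted p = 0.0287 and 0.0379). Tnip3 did not pass without young 1, young 3 or aged Ri 3 (edgeR adjusted p up to 0.156). Eef1g with Ahnak did not pass when any of young 1, 2 or 3, aged 1 or 2 or aged Ri 3 was dropped (edgeR adjusted p up to 0.147). Neither passed with no batch term. The log2 change was −1.02 at Gfra2 and −0.77 at the Cd52 cluster (edgeR adjusted p = 0.00620 and 0.00784), but neither passed once young 1 was dropped (edgeR adjusted p = 0.117 and 0.109).

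Neighbouring peaks of the 141 clusters shared the sign of their change about as often as neighbours elsewhere. Of 790 neighbouring pairs within the 141 clusters, 57.3% had log2 changes of the same sign for aged against young libraries, beside 58.3% of 12618 pairs in runs of 2 to 5 peaks and 55.2% of pairs farther apart than the gap. For aged Ri against aged libraries the shares were 54.8%, 57.1% and 53.4%. Signs of single peaks carry large counting error at these depths. The shares therefore cannot tell whether peaks of a cluster move together. In repeated clusters they were 79.7% with age and 94.8% with Ri, over 172 pairs. Of the 192 repeated peaks, 184 were below 0 with Ri and only 52 above 0 with age. With Ri, pairs of repeated peaks would thus mostly share a sign without any tie within a cluster. With age the signs were less one-sided, and how far they account for the 79.7% was not tested. The strongest peaks of the clusters together held 29.5 ± 1.49% of cluster counts in young, 28.9 ± 2.13% in aged and 30.1 ± 3.05% in aged Ri libraries (SD, n = 4, 5 and 5, exact permutation p = 0.750 for age and 0.528 for Ri). Without the repeated clusters this share was 35.6 ± 2.21% in young and 34.2 ± 2.47% in aged libraries (SD, n = 4 and 5). Within batches it was lower with age by a mean difference of −0.836 points (exact permutation p = 0.0278, the smallest the 36 arrangements can give, and 0.349 over arrangements that ignore batch), a comparison chosen after seeing the data.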

How the data were processed

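The deposited table holds raw read counts for each library over 57289 consensus peaks, each 700 bp long on mm10, with replicates kept apart. The tools named, per the submitters' processing notes, include featureCounts, SAMtools 1.14 and R 4.2.0. The aligner, the peak caller and the handling of reads with several matches are not given in the sources used here, and that handling bears directly on repeated sequence. The members, gene lists and tests were chosen with earlier results of these data known.

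Peaks of the whole table, and all 43173 joined runs, were tested in R 4.3.3 with edgeR 4.0.16 in one fit of the 14 libraries, with terms for group and sequencing batch, TMM scaling, the filterByExpr filter, a robust quasi-likelihood test and Benjamini-Hochberg adjustment at 0.05. CPM used TMM-scaled totals, and runs kept the library sizes of the peak table. Alternatives used DESeq2 1.42.0, RLE, no filter, no batch term, loess offsets (limma 3.58.1), the replicate number as a block, each library's gene-end share as a covariate, other gaps and sizes, and each library left out. The edgeR steps were tested on simulated data. Shares and figures used Python 3.11.15, numpy 2.4.6, pandas 2.3.3, SciPy 1.17.1 and matplotlib 3.10.9.

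Genes, promoters and miRNAs are RefSeq's for GRCm38.p6, matched by symbol. A cluster was named by the protein-coding genes it overlapped, or the nearest within 50 kb. Clusters named were the 10 with most peaks, the 10 with the highest CPM per peak, called clusters with 1 direction in all 3 batches (up to 8 each way) and those of the gene lists. Peaks named were called members with a mean count of at least 20 and 1 direction in all batches, up to 8 each way and 1 per cluster.

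Pairing by replicate number was checked on the 25903 peaks whose mean count reached 20. Untreated and treated aged libraries that carry one number also share a batch, and they deviated together (r = 0.36, 0.14, 0.65, 0.28 and 0.54). For aged 2 the closest treated library was aged Ri 1 (r = 0.34), and aged Ri 4 was as close to aged 5 (r = 0.29) as to aged 4. The numbers were taken as pairs, which is least sure for replicates 2 and 4. Aged and young libraries of the same number did not deviate together (r = 0.07, 0.05, −0.25 and −0.28).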

Additional observations from a re-analysis of the deposited data

Results flagged for a closer look

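Among 165 groups of 4 or 5 libraries checked for one that stands apart, 6 held such a library, where chance alone gives about 1 in 20. At the Hoxb cluster (Hoxb5, Hoxb3 and Hoxb4) the highest aged library had 128.6 CPM and the next 101.1 CPM. At Zfpm1 the highest aged Ri library had 97.8 CPM and the next 74.1 CPM. In young libraries the Itga5 peak that rose most with age reached 24.7 CPM in the highest and 13.3 CPM in the next, still under every aged library. For the Septin9 peak that fell with age, the highest aged library had 26.7 CPM and the next 11.7 CPM. At the Pecam1 peak that rose with Ri the highest aged Ri library had 24.2 CPM and the next 12.2 CPM. At the peak near Nrip1 the lowest aged Ri library had 5.96 CPM and the next 12.9 CPM.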

How the results depend on the processing

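At these depths a single member peak carries large counting error and a cluster less. The 46 member peaks called for age came to 29 with no batch term, 72 with the replicate block, 4 with the gene-end share covariate, 0 at a gap of 3 kb, 521 at 12 kb and 9 in clusters of 8 or more peaks. The 7 clusters came to 4, 17, 0, 0, 60 and 0 in the same order, and 12 with loess offsets. For aged Ri against aged libraries, 3 peaks came to 5 by DESeq2, 1 with RLE, 1 with no filter, 0 with no batch term, 93 with the paired block, 6 with the covariate, 0 at 3 kb, 43 at 12 kb and 0 at 8 or more. The 0 clusters came to 10 with the block, 2 with the covariate and 1 with loess offsets. For aged Ri against young libraries, 147 peaks came to 77 with no batch term, 76 with the block, 9 with the covariate, 12 at 3 kb, 1194 at 12 kb and 42 at 8 or more, and 19 clusters to 6, 10, 0, 1, 146 and 5, and 32 by DESeq2. Other gaps and sizes change how many members are counted: 184 peaks were tested at 3 kb, 9897 at 12 kb and 333 at 8 or more, against 1124. The clusters tested were 25, 1181 and 34, against 161. For peaks these 3 settings use the main fit, so the shares over all peaks given above apply. For the remaining settings, apart from the paired block, no share over all peaks is given. Without single libraries, peaks called ranged over 20 to 125, 0 to 9 and 48 to 210 in the 3 comparisons, and clusters over 1 to 13, 0 to 1 and 4 to 31. The share difference with age was 0.000326 points at 3 kb, 0.0605 at 12 kb, 0.00796 without repeated clusters and −0.136 to 0.0867 without single libraries. With Ri it was −0.240 at 12 kb (exact permutation p = 0.194), −0.0147 without repeated clusters, −0.222 by pairs (exact p = 0.0625) and −0.273 to −0.171 without single libraries. Against young it was −0.622 away from gene ends (exact permutation p = 0.0278) and −0.356 to −0.138. The strongest-peak share differed with age by −0.565 points at 12 kb and −0.836 without repeated clusters (each exact permutation p = 0.0278), 0.218 at 8 or more, and without single libraries by −1.004 to 0.726 (with Ri −0.126 to 2.03). Uncalled clusters changed sign with age under the covariate at Hoxa9 (−0.0144), Ier2 (0.104), Zfp36 (0.178), Socs3 (0.00713) and miR-23a (0.216), under loess offsets at Ier2 (0.0831), Socs3 (0.123) and miR-23a (0.103) and under the block at Socs3 (0.0418), and with Ri under loess offsets at Hoxa9 (0.0124). Without single libraries the log2 change spanned 0 for Ri at Lyl1 (−0.264 to 0.00611), Hoxa9 (−0.0873 to 0.0363), Hoxb5 (−0.106 to 0.0395), Pxn (−0.0518 to 0.0742) and Zfp36 (−0.0389 to 0.254), and for age at Gfi1b (−0.0118 to 0.178) and Socs3 (−0.116 to 0.138). The cause of these shifts was not tested. Leaving out repeated clusters was chosen after seeing the data. Pairing the other comparisons by number rests on shared numbers only.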

Other observations

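Some repeated clusters differed between sequencing batches, given as values with no test. The cluster at Gm40369 held 451 to 701 CPM in the 5 libraries of batch 1, 635 to 1566 CPM in the 6 of batch 2 and 1347 to 1925 CPM in the 3 of batch 3. At Gm40363, on the same stretch of chromosome 6, the ranges were 528 to 845, 675 to 1532 and 1660 to 2340 CPM. The Ifnz array was ordered differently: 483 to 677 CPM in batch 1, 852 to 1207 CPM in batch 2 and 698 to 822 CPM in batch 3, with no overlap between any of them. Each batch holds all 3 groups. The clusters at Gm40369 and Gm40363 were also lower in aged Ri than in young libraries (log2 −0.60 at each, edgeR adjusted p = 0.0418 and 0.0407). Each of these 2 calls held in 10 of 21 other settings.

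The clusters at Slc25a37, which encodes mitoferrin, the iron carrier of red cell mitochondria, and at the provisional gene Gm16867 had nearly the same values. They held 154 ± 14.1 and 146 ± 25.0 CPM in young libraries (SD, n = 4), 115 ± 27.4 and 119 ± 26.0 CPM in aged (SD, n = 5) and 103 ± 15.0 and 107 ± 23.5 CPM in aged Ri libraries (SD, n = 5). Both had 6 peaks, and the strongest held 53.3% and 54.0% of the counts. Whether reads were shared between the pair was not tested. The histone cluster on chromosome 13, from H3c3 to H1f1, had 8 peaks and 391 ± 67.4, 379 ± 79.9 and 420 ± 133 CPM in young, aged and aged Ri libraries (SD, n = 4, 5 and 5), with no comparison of aged libraries called.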
